A study of Mus musculus with 8 samples.

Results

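The comparison described here is Aire knockout against Aire wild-type in mouse spleen. It uses the 4 arrays labelled as spleen out of the 8 of the series: wild-type A, wild-type B, knockout A and knockout B, chosen by their titles, with all 45037 probe sets of the array other than its control probe sets. The other 4 arrays, with the same genotypes and letters, came from lymph node. The labels give the tissue, the Aire genotype and a letter, and no strain, age, sex, allele, pooling of animals or sorting step, so "spleen" need not mean whole spleen. Each probe set carries 1 MAS5 signal on a linear scale. The signals below were scaled to a common median per array, and all differences are knockout minus wild-type on the log2 scale, with signals under the floor of 9.58 raised to it. A difference is followed by its SE from limma's fit, and each group has 2 arrays throughout. Where signals are joined by "against" with no group named, those of wild-type A and B come first and those of knockout A and B second.

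Aire, the autoimmune regulator, is a nuclear protein of medullary thymic epithelial cells that lets them transcribe genes otherwise restricted to particular tissues, so that developing T cells meet those self antigens. The series title places the study outside the thymus, in cells of secondary lymphoid organs that express Aire and delete T cells. Spleen has a red pulp, where macrophages clear aged erythrocytes, and a white pulp of B and T cell zones in which mature dendritic cells present antigen.

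Aire itself, measured by probe set 1419241_a_at, had signals of 5037 and 5204 on wild-type arrays A and B and 1009 and 2376 on knockout arrays A and B. Both knockout arrays lay below both wild-type arrays, and knockout B kept more than knockout A. The difference was -1.73 ± 0.44, with an unadjusted limma p of 0.0121 and an adjusted p of 0.467, so the targeted gene did not pass the adjusted threshold of 0.05. An exact two-sided permutation of the 4 arrays gave p = 0.333, the smallest that 2 against 2 arrays allow. The difference was -1.11 without knockout A and -2.34 without knockout B. The labels do not say which part of the gene was deleted or whether the probe set lies inside it.

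The arrays were first read for markers of cell types, since the labels name none. Signals of different probe sets do not share a scale, so each marker is read against the floor and between arrays only. Ccr7, the receptor that guides mature dendritic cells to T cell zones, had 12751 and 13891 on the wild-type and 8641 and 11398 on the knockout arrays, and Fscn1, an actin-bundling protein of their dendrites, had 11279 and 11392 against 9491 and 11618. Both were far above the floor on every array. Ms4a1, which encodes CD20 of B cells, had 44.1 and 57.97 against 553 and 63.03, and Cd3e, a subunit of the T cell receptor complex, had 309 and 152 against 77.2 and 22.95, so both were also above the floor on every array, with Ms4a1 highest on knockout A. The summed signal of 11 B cell genes was 7685 and 7452 on the wild-type and 10500.1 and 5789.5 on the knockout arrays, most of it from Cd24a, which other cell types also express, at 6673 and 6460.2 against 7825 and 5049. The 10 plasma cell genes summed to 12229 and 8957 on the wild-type and 22422 and 8219.6 on the knockout arrays, and the 12 T cell genes to 2379.8 and 2537 against 4347 and 1554. Ncr1, the NK cell receptor NKp46, was under the floor on all 4 arrays. Epcam, an epithelial adhesion molecule, was above the floor at 2155 and 2468 against 1147 and 1943. Markers of several cell types were thus above the floor, but the floor is only the 20th percentile of all signals, and the median signal was 58.96. A signal above the floor therefore need not mean that a cell type was present. Shares of cell types cannot be read from these signals, and the label is used below only as the tissue of origin.

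**Figure D1:**
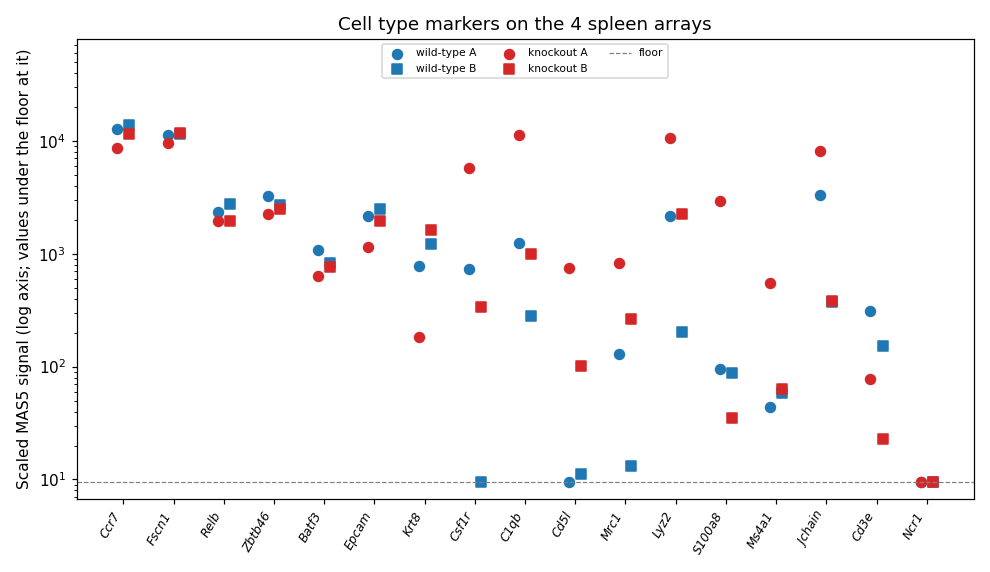
Scaled MAS5 signal (log axis) of cell type markers on the 4 spleen arrays. Blue marks wild-type and red knockout, circles array A and squares array B, and the dashed line the floor of 9.58. Ccr7 and Fscn1 lie at 8641 or above on every array, whereas Csf1r, C1qb, Lyz2 and S100a8 are highest on knockout A.

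Knockout A stood apart from the other spleen arrays. Over the 10838 probe sets with a mean signal above 239.7, log2 signals of the wild-type arrays correlated at r = 0.929 with each other and at 0.904 and 0.917 with knockout B. Knockout A correlated at 0.860 and 0.859 with the wild-type arrays and at 0.860 with knockout B, but at 0.936 with lymph node knockout A and 0.917 with lymph node wild-type A. Between the knockout arrays 1502 of 18193 genes (8.26%) differed over 4-fold, 945 of them higher on knockout A. Between the wild-type arrays 879 did (4.83%). The sex-linked signals also differed within and between groups: Xist, the RNA that coats the silenced X chromosome, had 7624 and 4585 on the wild-type and 5527 and 14.6 on the knockout arrays, and the Y-linked Eif2s3y had 21.2 and 1749 against 1116 and 1968. With the Y-linked signal as a covariate the fit below called 1 probe set. The medians of the gene lists, other than that of sex-linked genes, are therefore given with knockout A and without it.

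Across the array, 2 of 45037 probe sets (0.00444%) passed an adjusted p of 0.05 by limma, both higher in knockout, and neither is paired with a gene symbol in the probe set table. Probe set 1456182_x_at had signals of 0.471 and 4.69 on the wild-type and 4521 and 4157 on the knockout arrays. Its difference was 8.82 ± 0.10 (adjusted p = 0.000275 by limma), at least 452-fold with the wild-type arrays at the floor. Probe set 1433438_x_at had 7.96 and 3.98 against 4568 and 3640.1, a difference of 8.73 ± 0.22 (adjusted p = 0.00517 by limma), at least 425-fold. Both went from under the floor to some of the brighter signals of the array. The same held on the lymph node arrays, where 1456182_x_at had 1879 and 1791 in knockout against 0.908 and 1.91 in wild-type. The corresponding lymph node values of 1433438_x_at were 1749 and 1775 in knockout against 13.7 and 9.52 in wild-type. Another unnamed probe set, 1456456_x_at, had 21.9 and 27.8 against 402 and 623 in spleen, a difference of 4.34 ± 0.26 with an adjusted limma p of 0.0600, and was likewise higher in lymph node knockout, at 332 and 376 against 10.3 and 6.904. The suffix _x_at marks probe sets whose probes can match more than a single transcript. With no floor the call for 1456182_x_at was lost, at a difference of 10.97 and an adjusted limma p of 0.113. The call for 1433438_x_at was lost when any single spleen array was left out, at adjusted p values from 0.0513 to 0.124, and both calls were lost when the spleen arrays were fitted alone (adjusted p = 0.360 by limma).

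Among the 18193 genes, each taken at its brightest probe set, 631 were higher and 942 lower at an unadjusted limma p under 0.05, which is 3.47% and 5.18% of all genes. None passed the adjusted threshold. Without knockout B the higher genes numbered 1265, and without knockout A 865. Both knockout arrays lay above both wild-type arrays for 2198 genes (12.1%) and below them for 3528 (19.4%). This surplus of lower genes sat among bright genes and moved with the scaling. When genes were split into 4 equal bins by mean signal, 1.91% of the brightest bin were higher and 6.27% lower at an unadjusted p under 0.05, and in the dimmest bin 2.64% and 3.47%. Of the genes at that threshold 40.1% were higher with the common median, 53.4% on the deposited scale and 48.7% after quantile normalization. For the 5668 abundant genes, those with a mean signal above 239.7, the shares were 27.4%, 48.6% and 50.1%. The median difference of the abundant genes was -0.13 with the common median and -0.02 on the deposited scale. No direction is read from the balance of higher and lower genes.

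The 12 named probe sets with the smallest p among those higher in knockout, each of another gene, reached at most 319.8, and none passed the adjusted threshold, with adjusted limma p values from 0.0600 to 0.120. In 7 of them both wild-type arrays lay under the floor, where raised values have no spread and p values become small. For these 7 the differences are lower bounds set by the floor. Ccnjl, a member of the cyclin family, had 2.06 and 3.26 on the wild-type and 131 and 142 on the knockout arrays, a difference of 3.83 ± 0.22. Zbp1, an interferon-induced sensor of left-handed nucleic acids that can trigger necroptosis, had 12.8 and 4.25 against 96.7 and 128, a difference of 3.33 ± 0.24. Both of its probe sets were higher on both knockout arrays, the other at 77.05 and 98.4 against 396 and 309, and with all probe sets of a gene averaged its adjusted limma p was 0.0251. Slc1a3, a glutamate transporter, had 6.53 and 3.19 against 108 and 97.1 (3.41 ± 0.27), and 3 of its 6 probe sets were higher on both knockout arrays while the groups overlapped on 3.

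Cpq, a secreted carboxypeptidase, had 6.44 and 5.84 against 115 and 68.3 (3.21 ± 0.28) with overlap on its 2 other probe sets, and Cenpv, a centromere protein, 74.3 and 68.2 against 265 and 319.8 (2.03 ± 0.18). Trp53bp1, which acts at DNA breaks, had 46.8 and 41.1 against 150.4 and 132, but its probe sets disagreed. Of 6, 2 were higher and 1 lower on both knockout arrays, and the one with the highest signal, 1426956_a_at, overlapped at 7381 and 5992 against 5839 and 7050.0. Sass6, a scaffold of new centrioles, had 21.7 and 21.3 against 56.00 and 60.5. On each of the named probe sets the groups did not overlap. These genes had 24 other probe sets, of which 5 were likewise higher on both knockout arrays, 16 overlapped and 3 were lower. The remaining 5 were the cytokine precursor Il16, the coagulation factor F5, the zinc finger genes Zfp853 and Zfp385b and the pseudokinase Trib2, with knockout signals between 25.05 and 39.1. Of the 12 probe sets, 6 differed in the same direction in lymph node, 5 of them at an unadjusted limma p under 0.05. The fit gives both tissues the same SE, and these probe sets were chosen for a small spleen p. Their lymph node p values are thus not independent of that choice, and the counts are a description.

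The 12 named probe sets with the smallest p among those lower in knockout, each of another gene, were under the floor on both knockout arrays, with wild-type signals from 23.8 to 108.8 and adjusted limma p values from 0.0600 to 0.0917. The sizes of their differences are therefore lower bounds set by the floor, and the raised knockout values add no spread to the SE. Grk5, a kinase of G protein-coupled receptors, had 91.8 and 109 against 8.62 and 2.84 (-3.38 ± 0.22), while its other probe set, 1449514_at, overlapped at 161 and 202 against 101 and 179. Pou5f1, the pluripotency factor Oct4, had 62.99 and 49.4 against 7.75 and 5.77 (-2.54 ± 0.15), and Bik, a BH3-only inducer of apoptosis, 48.8 and 55.5 against 4.86 and 7.86 (-2.44 ± 0.13). A second Bik probe set, 1420362_a_at, was lower at 98.3 and 76.1 against 21.3 and 25.9 and stayed above the floor. Of the 16 other probe sets of these 12 genes, 2 were lower and 1 higher on both knockout arrays and 13 overlapped, and 6 of the genes had a probe set above the floor on both knockout arrays, so absence from the knockout is not read from the named probe sets. Egflam, an extracellular matrix protein of photoreceptor synapses, had 40.8 and 46.9 against 4.26 and 8.54 (-2.19 ± 0.12), and Mcpt8, a protease of basophils, 43.7 and 36.4 against 4.72 and 4.44 (-2.06 ± 0.13). The others belonged to Vax2os, Arr3, Jakmip1, Zscan12, Lhx8, Pcdh10 and Miat, with wild-type signals of 38.4 or less. On 8 of the 12 all 4 lymph node arrays were under the floor as well, and on all 12 both wild-type spleen arrays lay above the lymph node arrays. These probe sets were chosen for their spleen difference, so the counts are a description. On those 8 any wild-type spleen signal above the floor had to be the higher.

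Because the smallest p values went to dim probe sets, abundant probe sets were also ranked, a choice made after the values were seen. Of the 5668 genes whose brightest probe set was abundant, 138 were higher and 366 lower at an unadjusted limma p under 0.05, and none passed the adjusted threshold. Of all 10838 abundant probe sets 225 were higher and 673 lower at that threshold. The 12 of these with the smallest p in each direction, 1 for each gene, had adjusted limma p values from 0.154 to 0.308 (higher) and from 0.147 to 0.261 (lower), and in each direction 9 of the 12 were the brightest probe set of their gene. Among these named probe sets C5ar1, the receptor for the complement fragment C5a on myeloid cells, had the largest difference, 5.84 ± 0.69, with 12.1 and 25.1 on the wild-type and 1868 and 537 on the knockout arrays. Its other probe set, 1422190_at, was dim and its groups overlapped, at 29.1 and 6.42 against 46.96 and 13.1. Zbp1 had 77.05 and 98.4 against 396 and 309 on its brighter probe set (2.01 ± 0.22), Hnrnpa1, an RNA-binding protein of splicing, 82.2 and 153 against 493 and 899 (2.57 ± 0.42), and Igtp, an interferon-inducible GTPase, 186 and 179 against 726 and 451 (1.65 ± 0.28). The 2 other Hnrnpa1 probe sets overlapped, 1455305_x_at at 3815 and 3153 against 4255 and 3089 and 1436549_a_at at 2192 and 2029 against 2549 and 2030.3. Smaller differences with tight arrays were those of Zxdc, a zinc finger protein (393 and 405 against 936 and 829.6), Pfkp, the platelet-type phosphofructokinase of glycolysis (271 and 286 against 520.3 and 565), and Septin7, a cytoskeletal GTPase (201 and 179 against 344 and 405). Cdc42ep3, Tab3, Fam241a, Tm2d2 and Pcnx4 completed the 12. Pcnx4 turned direction, to -0.31, when its probe sets were averaged.

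On the lower side Mapre1, which encodes the microtubule end-binding protein EB1, had 1506 and 1304 against 598 and 573 (-1.26 ± 0.12), and 2 of its 5 probe sets were lower on both knockout arrays. The other 3 overlapped, among them the one with the highest signal, 1422764_at, at 3198 and 3887 against 2758 and 3413. Srrd had 494 and 417 against 171 and 165 (-1.43 ± 0.13), Foxn3, a forkhead repressor, 716 and 607 against 278 and 238 (-1.36 ± 0.15), and Dda1, a subunit of a ubiquitin ligase complex, 655 and 737 against 330.0 and 317 (-1.10 ± 0.11). In each of these the knockout arrays lay close together and well apart from the wild-type arrays. Cd7, an immunoglobulin superfamily receptor of lymphoid cells, had 3742 and 4110.4 against 966 and 1421 (-1.74 ± 0.26). Slc66a2 had 1046 and 947 against 288 and 302 (-1.75 ± 0.25). Axin2, a feedback inhibitor of Wnt signalling, had 1182 and 1173 against 617 and 673, Tcn2, the carrier of vitamin B12, 1106 and 1104 against 577 and 588, and Esam, an adhesion molecule of endothelial cells and some dendritic cells, 1195 and 1308 against 523 and 666. Plpp6, Tfip11 and Triobp completed the list. Of the other probe sets of these 12 genes 12 of 21 were lower on both knockout arrays and 9 overlapped, and of those of the 12 higher genes 9 of 20 were higher, 9 overlapped and 2 were lower.

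**Figure D2:**
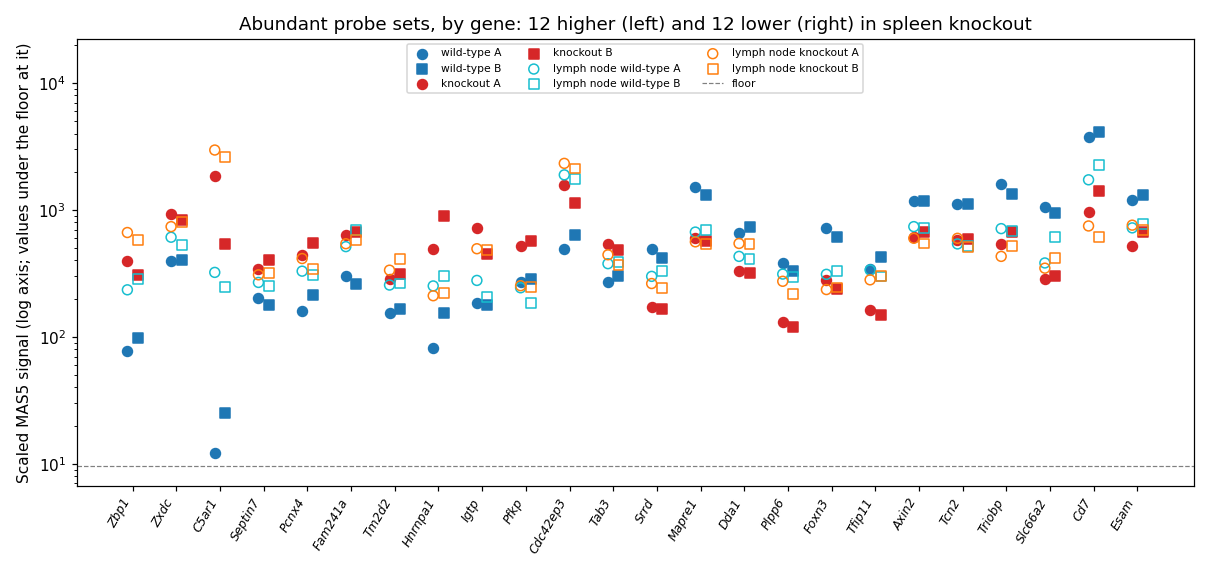
Scaled MAS5 signal (log axis) of the 12 abundant probe sets higher and the 12 lower in spleen knockout with the smallest p, named by gene, on all 8 arrays. Filled blue is spleen wild-type, filled red spleen knockout, open cyan lymph node wild-type and open orange lymph node knockout, with circles for A, squares for B and a dashed line at the floor of 9.58. For all 12 lower probe sets both spleen wild-type arrays lie above the 4 lymph node arrays, and for 11 of the 12 higher ones both lie below them. Both spleen knockout arrays lie below the lymph node arrays for 6 of the lower probe sets and above them for 6 of the higher ones.

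The lymph node arrays were set beside the abundant genes to place each spleen group. Of the 366 lower abundant genes, both wild-type spleen arrays lay above all 4 lymph node arrays in 270, and both knockout spleen arrays lay below them in 86. Of the 138 higher ones, both wild-type arrays lay below the lymph node arrays in 76 and both knockout arrays above them in 51. On the named Mapre1 probe set the lymph node signals were 669 and 691 for wild-type and 561 and 536 for knockout, beside the spleen knockout values of 598 and 573. For Foxn3 they were 311 and 332 for wild-type and 236 and 245 for knockout, again near the spleen knockout arrays. Among the 12 named lower probe sets, however, both spleen knockout arrays lay below the lymph node arrays in 6. These genes were chosen for their spleen difference, and no share over all abundant genes is set beside them. The counts are therefore a description, and neither spleen group is read as the one apart. By the interaction test 0 of 45037 probe sets (0%) differed between the spleen and lymph node effects at an adjusted limma p under 0.05. The smallest adjusted p was 0.214, and 2288 probe sets had an unadjusted p under 0.05.

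Macrophage genes leaned to higher signals in knockout, with a large spread between the knockout arrays. Of 16 red pulp and tissue macrophage genes, 8 were higher and 1 lower on both knockout arrays than on both wild-type arrays, beside the 12.1% and 19.4% of all genes. At an unadjusted limma p under 0.05, 4 were higher and 1 lower, beside 3.47% and 5.18%, and none passed the adjusted threshold. The median difference was 1.76, beside -0.03 over all genes, and 0.89 without knockout A. Knockout B alone lay above both wild-type arrays in 8 genes and below both in 5, where all genes gave 27.9% and 35.7%. In samples of mixed cells a difference in the number of cells of a type and in RNA per cell cannot be told apart. Summed over these genes the signal was 10566 and 8605 on the wild-type and 31886 and 7798 on the knockout arrays, so the sum was above both wild-type arrays on knockout A and below both on knockout B. Cd5l, Csf1r and C1qa were each under the floor on 1 wild-type array, and no member was under it on a knockout array. The part of macrophage content in the differences of C5ar1, Plau, Fc receptors, complement, chemokines, cytokines and costimulatory genes given below was not tested.

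Cd5l, a secreted scavenger protein of macrophages, had 7.23 and 11.3 on the wild-type and 753 and 101 on the knockout arrays (4.73 ± 1.59, unadjusted p = 0.0319 by limma). Mrc1, the mannose receptor, had 128 and 13.2 against 834 and 266 (3.52 ± 1.24), and Axl, a receptor kinase for the removal of dying cells, 274 and 387 against 895 and 656 (1.23 ± 0.31). Adgre1, which encodes F4/80, was dim at 44.7 and 30.2 against 87.2 and 78.4 (1.17 ± 0.33). In all of these both knockout arrays were above both wild-type arrays, but knockout A was the higher in each. Csf1r, the receptor for the macrophage growth factor CSF1, shows the spread: wild-type A had 738 and wild-type B 1.16, knockout A 5798 and knockout B 337, so the groups overlapped. C1qb, a subunit of the first complement component, had 1247 and 279 against 11272 and 986, again with overlap. Spic, the factor that red pulp macrophages depend on, did not follow, at 1624 and 2443 against 1794 and 1238 (-0.42 ± 0.36). Maf, a macrophage transcription factor, was lower on both knockout arrays on its brightest probe set, at 3374 and 3035 against 2172 and 1734 (-0.72 ± 0.18, unadjusted p = 0.0108 by limma). Its probe sets disagreed: of 6, 3 were lower and 1 higher on both knockout arrays, and 2 overlapped.

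Of the 5 marginal zone macrophage genes 3 were higher and 1 lower on both knockout arrays (12.1% and 19.4% of all genes), 2 of the higher at an unadjusted limma p under 0.05, and the median was 1.45, or 0.35 without knockout A. Siglec1, a sialic acid receptor of metallophilic macrophages, had 10.4 and 27.4 against 146 and 70.5 on its brightest probe set (2.59 ± 0.65), while the groups overlapped on its 2 other probe sets. Msr1, a scavenger receptor, had 34.8 and 32.1 against 281 and 98.7 (2.32 ± 0.54), and the groups overlapped on 2 of its 4 probe sets. Both knockout arrays were higher on the probe sets given for Siglec1 and Msr1, whereas Marco, another scavenger receptor of marginal zone macrophages, overlapped at 56.3 and 32.3 against 62.4 and 17.00 and the lectin Cd209b was dim at 37.9 and 16.5 against 16.2 and 2.82.

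**Figure D3:**
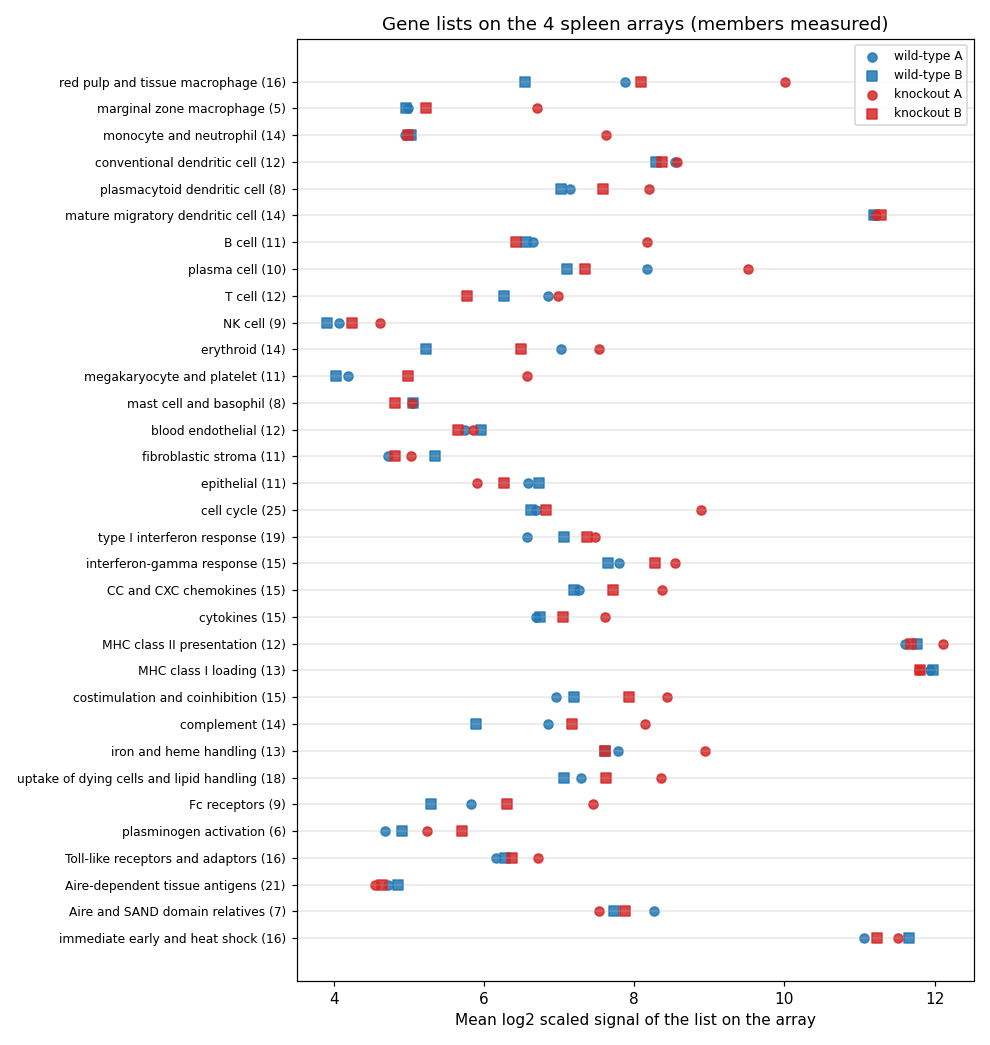
Mean log2 scaled signal of each gene list (horizontal axis) on the 4 spleen arrays, with the number of members measured in brackets. Blue is wild-type, red knockout, circles A and squares B. Mature migratory dendritic cell genes lie at 11.19 and 11.19 on the wild-type arrays and 11.22 and 11.29 on the knockout arrays, while macrophage, monocyte and neutrophil, plasma cell and cell cycle genes are highest on knockout A.

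Fc receptors, which bind antibody on myeloid cells and lymphocytes, were higher in 6 of 9 genes on both knockout arrays and lower in 0, beside 12.1% and 19.4% of all genes. At an unadjusted limma p under 0.05, 2 were higher and 0 lower, beside 3.47% and 5.18% of all genes. Their median was 1.32, and 0.64 without knockout A. Fcgr1, the high-affinity IgG receptor, had 6.903 and 1.68 against 157 and 63.1 (3.38 ± 0.72), whereas its other probe set was lower on both knockout arrays, and Fcgr2b, the inhibitory IgG receptor, 8.02 and 15.9 against 38.5 and 31.5 (1.50 ± 0.29). Fcgr3 had 53.9 and 49.2 against 593 and 92.4, where knockout A carried most of the difference. Fcer1g, the signalling chain of Fcgr1 and Fcgr3, was abundant and overlapped at 2807 and 2076 against 2487 and 1929.5 (-0.14 ± 0.21, 95% interval ± 0.55).

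Of the 14 complement genes 2 were higher and 1 lower on both knockout arrays (12.1% and 19.4% of all genes), with a median of 0.89 (0.40 without knockout A). C5ar1 was the only member at an unadjusted limma p under 0.05 in this list, and the receptor for the companion fragment C3a, C3ar1, overlapped at 11.01 and 19.7 against 108 and 3.88. Cfb, factor B of the alternative pathway, was abundant and overlapped at 3106 and 3346 against 2787 and 3301. Plasminogen activation held 6 measured genes, 2 of them higher and 0 lower on both knockout arrays, beside 12.1% and 19.4% of all genes. Plau, the urokinase that turns plasminogen into plasmin, had 41.6 and 52.9 on the wild-type and 369 and 398 on the knockout arrays (3.03 ± 0.31, unadjusted p = 0.000225, adjusted p = 0.151 by limma). Its knockout arrays were close to each other, and its second probe set gave 2.41 and 11.9 against 92.01 and 60.9. Plaur, its receptor, overlapped at 218 and 103 against 205 and 149, and the median of the list was 0.22 and 0.35 without knockout A.

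Genes for the uptake of dying cells and the handling of their lipids were split, with 7 of 18 higher and 4 lower on both knockout arrays, beside 12.1% and 19.4% of all genes. At an unadjusted limma p under 0.05, 2 were higher and 1 lower (3.47% and 5.18% of all genes), and the median was 0.56, or 0.22 without knockout A. Apoe, the apolipoprotein that carries cholesterol out of macrophages, had 21.3 and 5.49 against 245 and 82.1 (3.31 ± 1.07), and Lpl, which releases fatty acids from lipoproteins, 269 and 252 against 1099.9 and 533 (1.56 ± 0.61). Mfge8, which bridges dying cells to phagocyte integrins, was abundant and went the other way, with 4427 and 4939.9 against 3231 and 2651 (-0.68 ± 0.24, unadjusted p = 0.0383 by limma). Among 13 iron and heme genes 3 were higher and 1 lower on both knockout arrays (12.1% and 19.4% of all genes), and the median of 0.74 became -0.08 without knockout A. Slc40a1, the iron exporter ferroportin, had 277 and 82.3 against 835 and 86.8 and Hmox1, which breaks down heme, 237 and 299.6 against 929 and 283, both high on knockout A only.

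Costimulatory and coinhibitory molecules, by which antigen-presenting cells tune T cell responses, differed in the same direction on both knockout arrays for most members. Of 15 genes 10 were higher and 0 lower, beside 12.1% and 19.4% of all genes. At an unadjusted limma p under 0.05, 5 were higher and 0 lower, beside 3.47% and 5.18% of all genes. Knockout B alone lay above both wild-type arrays in 13 and below both in 1, where all genes gave 27.9% and 35.7%, and the median was 0.86, or 0.75 without knockout A. Havcr2, the inhibitory receptor TIM-3, had 11.4 and 4.88 against 131 and 94.98 (3.42 ± 0.36, unadjusted p = 0.000263, adjusted p = 0.154 by limma). Tnfsf9, the ligand of 4-1BB, was the tightest, with 345 and 342 against 622 and 625 (0.86 ± 0.16, unadjusted p = 0.00297 by limma). Cd86, a ligand of CD28 and CTLA-4, had 190.1 and 265 against 2398 and 456 (2.22 ± 0.79), and its partner Cd80 232 and 305 against 1168 and 387 (1.34 ± 0.54).

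Tnfrsf14, the receptor HVEM, had 54.2 and 57.8 against 331 and 109 (1.77 ± 0.65), Vsir, the checkpoint molecule VISTA, 2.28 and 32.2 against 57.3 and 155 (2.42 ± 0.92), and Cd274, which encodes PD-L1, 552 and 627 against 1334 and 664 (0.68 ± 0.45). All were higher on both knockout arrays on the probe sets given, although Cd86, Cd80 and Tnfrsf14 were far higher on knockout A. The groups overlapped on 2 of the 4 Cd80 probe sets. Cd40, which receives help from T cells, was already abundant and overlapped at 4582 and 4917 against 4659 and 6683. Icosl, the ligand of ICOS, had 16364 and 17039 against 14516 and 17414, with overlap. A dimmer Icosl probe set, 1426087_at, had 1614 and 1272 against 517 and 300.1 (-1.86 ± 0.31), so its probe sets disagreed.

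Toll-like receptors were mixed. Of 16 receptors and adaptors 5 were higher and 4 lower on both knockout arrays, beside 12.1% and 19.4% of all genes, with a median of 0.12 (0.00 without knockout A). Tlr4, the receptor for bacterial lipopolysaccharide, had 16.4 and 2.23 against 177 and 126 (3.57 ± 0.86, unadjusted p = 0.00922 by limma), whereas Tlr2, which senses bacterial lipoproteins, had 264 and 279.8 against 131 and 143 (-0.99 ± 0.35, unadjusted p = 0.0382 by limma). On these probe sets the receptors thus lay on opposite sides, while the groups overlapped on 2 of the 4 Tlr4 probe sets. Ly96, the MD-2 partner of Tlr4, was lower on both knockout arrays at 958 and 1131 against 706 and 842, and Cd14, its coreceptor, overlapped at 37.9 and 17.6 against 34.6 and 51.2. Tlr9 and Tlr12 overlapped as well.

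Among 15 chemokines 4 were higher and 3 lower on both knockout arrays (12.1% and 19.4% of all genes), 4 and 1 of them at an unadjusted limma p under 0.05 (3.47% and 5.18% of all genes). The median of 0.28 changed to -0.12 without knockout A. Ccl8, an attractant of monocytes and T cells, had 24.8 and 6.36 against 1210.3 and 279 (5.24 ± 1.43), and Ccl3 16.5 and 35.3 against 335 and 61.2 (2.57 ± 0.91). Ccl2, the main attractant of CCR2-bearing monocytes, differed less but evenly, with 54.7 and 42.3 against 135 and 165 (1.64 ± 0.32, unadjusted p = 0.00401 by limma), and the related Ccl7 was dim at 15.3 and 8.16 against 30.3 and 27.6. Ccl9 was lower, with 2457 and 3335 against 1373 and 2027 (-0.78 ± 0.25). Ccl22 and Ccl17, which mature dendritic cells make to attract CCR4-bearing T cells, were higher on both knockout arrays. Ccl22 had 2781 and 4137 against 4544 and 5071 (unadjusted p = 0.228 by limma), and Ccl17 had 262 and 428 against 1223 and 564 (unadjusted p = 0.0676 by limma).

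Of 15 cytokines 4 were higher and 3 lower on both knockout arrays (12.1% and 19.4% of all genes), with 3 and 0 at an unadjusted limma p under 0.05 (3.47% and 5.18% of all genes) and a median of 0.86 (0.08 without knockout A). Il10, which restrains inflammation, had 30.7 and 40.3 against 199 and 135 (2.22 ± 0.40, unadjusted p = 0.00275 by limma). Ebi3, a subunit of the cytokines IL-27 and IL-35, had 639 and 599.8 against 1074 and 1267 (0.91 ± 0.26), and Il1rn, the antagonist of the IL-1 receptor, 293 and 233 against 582 and 442 (0.96 ± 0.33). Each of these was higher on both knockout arrays. Tnf overlapped at 224 and 154 against 186 and 182, and Il15, Il23a and Lif were lower on both knockout arrays, with Il15 at 1087 and 787 against 489.7 and 627.

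Interferon-stimulated genes lay on both sides. Of 19 genes of the type I interferon response 5 were higher and 2 lower on both knockout arrays (12.1% and 19.4% of all genes), 5 and 1 at an unadjusted limma p under 0.05 (3.47% and 5.18% of all genes), with a median of 0.31 (0.20 without knockout A). Of 15 interferon-gamma response genes 7 were higher and 4 lower on both knockout arrays, beside the same shares, 4 and 0 at that threshold, with a median of 0.72 (0.12 without knockout A). The promoters of 3 genes that lay apart between the groups are shown because they carry the same interferon-type motif yet lay on opposite sides. That of C5ar1, with the largest difference among the abundant probe sets named above, is shown beside them. They run from 250 bases before to 50 bases after the RefSeq start in GRCm38.p6: Igtp at chr11:58199306-58199605 (plus strand), Gbp7 at chr3:142530086-142530385 (plus strand), Bst2 at chr8:71537423-71537722 (minus strand) and C5ar1 at chr7:16259289-16259588 (minus strand). Each is printed 5′ to 3′ in the sense of its gene, and capitals mark matches to GAAANNGAA, a pair of the GAAA repeats that interferon-response factors recognise, or to its reverse complement TTCNNTTTC. In Bst2 2 matches overlap.
Igtp: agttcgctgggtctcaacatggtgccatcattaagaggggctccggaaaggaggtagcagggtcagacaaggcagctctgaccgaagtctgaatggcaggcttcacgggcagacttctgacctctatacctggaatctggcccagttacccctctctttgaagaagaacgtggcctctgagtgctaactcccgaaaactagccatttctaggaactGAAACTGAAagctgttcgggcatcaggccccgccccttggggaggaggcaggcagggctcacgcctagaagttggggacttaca
Gbp7: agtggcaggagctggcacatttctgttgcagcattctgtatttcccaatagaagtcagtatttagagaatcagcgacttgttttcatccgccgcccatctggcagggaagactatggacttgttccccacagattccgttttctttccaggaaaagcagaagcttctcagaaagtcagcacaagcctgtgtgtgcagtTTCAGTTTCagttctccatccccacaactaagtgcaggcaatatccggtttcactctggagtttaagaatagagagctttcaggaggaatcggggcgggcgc
Bst2: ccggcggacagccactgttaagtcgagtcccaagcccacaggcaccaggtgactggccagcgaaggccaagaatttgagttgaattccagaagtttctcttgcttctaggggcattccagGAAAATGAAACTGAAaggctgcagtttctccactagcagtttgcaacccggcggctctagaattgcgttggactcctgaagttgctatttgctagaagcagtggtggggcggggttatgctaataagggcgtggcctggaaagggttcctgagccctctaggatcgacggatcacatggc
C5ar1: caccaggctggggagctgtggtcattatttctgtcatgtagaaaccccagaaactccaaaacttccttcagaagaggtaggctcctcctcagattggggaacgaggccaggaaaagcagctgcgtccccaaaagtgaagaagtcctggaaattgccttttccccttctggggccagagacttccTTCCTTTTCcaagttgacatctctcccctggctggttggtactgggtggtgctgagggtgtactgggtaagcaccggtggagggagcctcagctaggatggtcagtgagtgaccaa

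GAAANNGAA occurred on either strand in 2638 of 27025 gene promoters of that length (9.76%) and in 17 of the 24 members of both interferon lists that have a promoter entry (70.8%), out of 34 members. It was present in 5 of 9 members that were higher on both knockout arrays, 3 of 4 that were lower and 9 of 11 whose groups overlapped. A match is a description of these letters and not a binding site.

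On the higher side were Igtp and Gbp7, interferon-inducible GTPases that act on pathogen vacuoles. Igtp had 186 and 179 on the wild-type and 726 and 451 on the knockout arrays (1.65 ± 0.28, unadjusted p = 0.00207 by limma), and Gbp7 had 109 and 91.1 against 464 and 352 (2.02 ± 0.49). On the other Gbp7 probe set the groups overlapped. Iigp1, a GTPase of the same family as Igtp, had 34.03 and 1.28 against 293 and 157 (3.57 ± 0.86). Oasl1 and Oasl2, relatives of the antiviral oligoadenylate synthetases, were both higher. Oasl1 had 19.6 and 25.4 against 50.5 and 60.2 (1.30 ± 0.24), and Oasl2 had 4.91 and 47.7 against 154 and 209.9 (3.07 ± 0.90). Irf7, the factor that amplifies type I interferon, was dim at 6.43 and 28.8 against 118 and 66.6 (2.42 ± 0.68). All were higher on both knockout arrays.

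Other interferon genes lay on the lower side. Mx1, an antiviral dynamin-like GTPase, had 3340.0 and 3160.3 against 1204 and 1775 (-1.15 ± 0.38, unadjusted p = 0.0302 by limma). Rsad2, which encodes the antiviral protein viperin, had 6901 and 7141 against 4033 and 4632 (-0.70 ± 0.46), and its 3 probe sets were all lower on both knockout arrays. Bst2, which tethers budding virus and is listed with plasmacytoid dendritic cells, had 3038 and 3354 against 1463 and 2107 (-0.86 ± 0.23, unadjusted p = 0.0147 by limma). Ido1, which degrades tryptophan, had 1689 and 2239.6 against 524 and 1262 (-1.26 ± 0.69). For these genes both knockout arrays were lower, with knockout B between knockout A and the wild-type arrays. Usp18, the brake on the type I interferon receptor, overlapped at 1105 and 1224 against 1088 and 1231 (-0.01 ± 0.13, 95% interval ± 0.33).

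**Figure D4:**
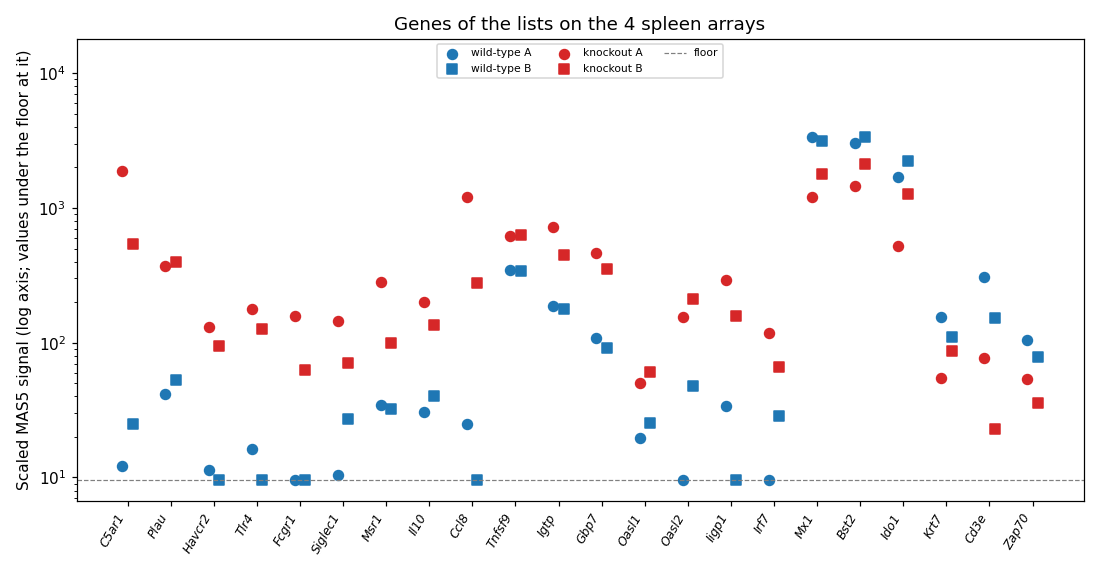
Scaled MAS5 signal (log axis) of genes of the lists on the 4 spleen arrays, chosen after their values were seen. Blue is wild-type, red knockout, circles A, squares B, and the dashed line the floor of 9.58. From C5ar1 to Irf7 both knockout arrays lie above both wild-type arrays, and from Mx1 to Zap70 below them.

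Dendritic cell genes and antigen presentation showed smaller differences. Of the 14 mature migratory dendritic cell genes 3 were higher and 7 lower on both knockout arrays, beside 12.1% and 19.4% of all genes and 9.34% and 30.4% of the brightest bin, and no member had an unadjusted limma p under 0.05. The median of -0.21 was -0.14 without knockout A, -0.10 on the deposited scale and -0.07 after quantile normalization. Ccr7 differed by -0.42 ± 0.25, Relb, an NF-kB subunit of maturing dendritic cells, had 2322 and 2745 against 1940.2 and 1940.0 (-0.38 ± 0.28), and Cd83 had 7814 and 8690.2 against 6232 and 6895 (-0.33 ± 0.19). The abundant genes as a whole had a median of -0.13 on the same scale.

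Of 12 conventional dendritic cell genes 1 was higher and 4 were lower on both knockout arrays, beside 12.1% and 19.4% of all genes, with a median near 0 whose sign depended on the scaling and which was -0.19 without knockout A. Itgax, which encodes CD11c, had 124 and 77.2 against 282 and 212 (1.32 ± 0.50, unadjusted p = 0.0470 by limma), while Batf3 and Irf8, factors of the cross-presenting lineage, were lower on both knockout arrays. Batf3 had 1069 and 834 against 637 and 756 (-0.44 ± 0.28), and Irf8 had 4132 and 4692 against 2590.4 and 3769 (-0.49 ± 0.38). Zbtb46, a transcription factor of conventional dendritic cells, was abundant at 3240.5 and 2709 against 2236 and 2500.2. Its probe sets disagreed: of 4, 2 were lower and 1 higher on both knockout arrays, and 1 overlapped. Among 8 plasmacytoid dendritic cell genes 3 were higher and 1 lower on both knockout arrays (12.1% and 19.4% of all genes), with a median of 0.60 (0.18 without knockout A). Siglech, a surface lectin of these cells, had 66.7 and 11.1 against 558 and 115 (3.22 ± 1.23), opposite to Bst2.

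MHC class II genes showed small differences. Of 12 genes 1 was higher and 2 were lower on both knockout arrays (12.1% and 19.4% of all genes) and none had an unadjusted limma p under 0.05, and the median of -0.04, also -0.04 without knockout A, turned to 0.07 on the deposited scale and 0.06 after quantile normalization. Cd74, the invariant chain, had 14556 and 15048 against 13845 and 14817 (-0.05 ± 0.16, 95% interval ± 0.42), and H2-Aa, a class II alpha chain, 12178 and 13433 against 11746 and 12453 (-0.08 ± 0.16, ± 0.40). Of 13 class I loading genes 0 were higher and 4 lower on both knockout arrays, beside 12.1% and 19.4% of all genes and 9.34% and 30.4% of the brightest bin, with a median of -0.15, -0.06 without knockout A and -0.04 on the deposited scale. Nlrc5, the class I transactivator, had 8523 and 8356 against 5452 and 7302 (-0.42 ± 0.35) and Tap2, a subunit of the peptide transporter, 456 and 585 against 288 and 418 (-0.57 ± 0.29).

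T cell genes lay on both sides. Of 12 genes 2 were higher and 4 lower on both knockout arrays, beside 12.1% and 19.4% of all genes, and 1 and 3 at an unadjusted limma p under 0.05, beside 3.47% and 5.18% of all genes. Cd3e had 309 and 152 on the wild-type and 77.2 and 22.95 on the knockout arrays (-2.36 ± 0.85, unadjusted p = 0.0394 by limma), Cd3d 71.1 and 64.3 against 31.6 and 25.3 (-1.26 ± 0.40), and Zap70, the kinase of that receptor, 105 and 78.1 against 53.4 and 35.98 (-1.05 ± 0.25). On 2 of the 3 Zap70 probe sets the groups overlapped. Cd8a, the coreceptor that a subset of dendritic cells also carries, had 101 and 149 against 1030.2 and 304 (2.19 ± 0.68), and 2 of its 5 probe sets were higher on both knockout arrays while 3 overlapped. The list median was -0.30, -0.82 without knockout A and 0.22 without knockout B, so its direction rested on knockout B.

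B cell and plasma cell genes were mostly highest on knockout A. The B cell median of 0.19 became -0.38 without knockout A, and the plasma cell median of 0.69 became -0.05. On both knockout arrays 4 of 11 B cell and 2 of 10 plasma cell genes were higher and none was lower, beside 12.1% and 19.4% of all genes. Jchain, the joining chain of secreted antibody, had 3329 and 369.7 against 8185 and 377 and varied as much within as between groups. Bank1, a B cell scaffold, was the only member of these lists at an unadjusted p under 0.05, with 38.04 and 13.3 against 204 and 69.4 (2.40 ± 0.72, unadjusted p = 0.0213 by limma). Of 9 NK cell genes 1 was higher and 0 lower on both knockout arrays, beside 12.1% and 19.4% of all genes. Their median was 0.29 (0.00 without knockout A). The higher one was Klrd1 at 10.8 and 15.9 against 44.9 and 23.9, and Ncr1 and Klrk1 were under the floor on all 4 arrays.

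Monocyte and neutrophil genes had a median of 1.55, but 0.03 without knockout A, and 5 of 14 were higher and 0 lower on both knockout arrays, beside 12.1% and 19.4% of all genes. S100a8, a calcium-binding protein of neutrophils, had 94.5 and 88.2 against 2954 and 34.9, with knockout B below both wild-type arrays, and Mpo, the neutrophil peroxidase, was above the floor only on knockout A, at 218. Csf3r, the receptor for G-CSF, was dim at 2.63 and 7.68 against 21.01 and 35.2 (1.50 ± 0.26). Megakaryocyte and platelet genes were less tied to that array: 7 of 11 were higher and 0 lower on both knockout arrays (12.1% and 19.4% of all genes), 1 higher and 0 lower at an unadjusted limma p under 0.05 (3.47% and 5.18% of all genes), and the median was 1.35, or 0.84 without knockout A. Pf4, a chemokine of platelet granules that some macrophages also express, had 16.4 and 20.5 against 1664 and 197 (4.96 ± 1.16). The erythroid median of 0.78 (0.56 without knockout A) came with a wild-type spread of 2.16 between A and B, as in Slc4a1, the band 3 anion exchanger of red cells, at 2159 and 41.6 against 1852 and 1307. Erythroid groups overlapped in all but 1 of 14 genes, Hba-a1, which was dim at 1.01 and 3.801 against 19.4 and 14.6.

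Of 11 epithelial genes 0 were higher and 5 lower on both knockout arrays, beside 12.1% and 19.4% of all genes. At an unadjusted limma p under 0.05, 0 were higher and 2 lower, beside 3.47% and 5.18% of all genes. Knockout B alone lay above both wild-type arrays in 3 and below both in 6, where all genes gave 27.9% and 35.7%. The median was -0.65 (-0.41 without knockout A, -0.58 on the deposited scale and -0.66 after quantile normalization). Krt7, a keratin of simple epithelia, had 156 and 111 against 54.8 and 87.1 (-0.93 ± 0.30, unadjusted p = 0.0270 by limma), and Krt14, a basal keratin, was dim at 27.7 and 21.4 against 8.74 and 8.07 (-1.34 ± 0.48). On 2 of the 3 Krt14 probe sets the groups overlapped. Epcam had 2155 and 2468 against 1147 and 1943 (-0.63 ± 0.48), and on its dimmer probe set 1447899_x_at 296 and 297 against 136 and 185 (-0.90 ± 0.18, unadjusted p = 0.00419 by limma). Krt8 differed strongly between the knockout arrays, at 184 and 1632, with 775 and 1230.5 on the wild-type arrays. Among 11 fibroblastic stroma genes 3 were higher and 3 lower on both knockout arrays (12.1% and 19.4% of all genes), and most were dim: Dcn, a matrix proteoglycan, had 26.4 and 35.3 against 8.45 and 15.4 (-1.33 ± 0.32), and Tnfsf11, the ligand RANKL, 11.7 and 0.928 against 146 and 61.9 (3.17 ± 0.87). Of 12 endothelial genes 1 was higher and 2 were lower, among them Esam, beside 12.1% and 19.4% of all genes. The median difference was -0.46 over the stroma genes with and without knockout A, and 0.05 over the endothelial genes but -0.35 without knockout A. Mast cell and basophil genes were split, with 2 of 8 higher and 2 lower on both knockout arrays, beside 12.1% and 19.4% of all genes. Their median of -0.11 turned to 0.06 without knockout A.

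Genes listed as tissue antigens of the thymus, not all of which depend on Aire there, were mostly low on the spleen arrays. Of 21 measured 2 were higher and 7 lower on both knockout arrays, 1 and 1 at an unadjusted limma p under 0.05, with a median of -0.26 (-0.18 without knockout A). Those shares lie beside the 12.1% and 19.4% of all genes. Tg, thyroglobulin, had 30.1 and 32.4 on the wild-type and 7.54 and 4.72 on the knockout arrays (-1.70 ± 0.15, unadjusted p = 9.23e-05, adjusted p = 0.112 by limma), from a few times the floor to under it. Csn2, a milk casein, went the other way, with 0.764 and 0.492 against 96.9 and 28.9 (2.46 ± 0.57, unadjusted p = 0.00775 by limma). Mbp, the myelin protein that blood cells also transcribe in part, had 782 and 819.6 against 683 and 751 (-0.16 ± 0.23), and Ins2, an insulin gene, had 49.2 and 6.05 against 2.97 and 10.5 with overlap. Obp1a and Fabp9 were under the floor on all 4 arrays.

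Of the other proteins with a SAND domain, the DNA-binding module that Aire carries, Deaf1 had 70.2 and 25.8 against 51.6 and 68.8 with overlap, Sp100 had 653 and 568 against 719 and 737, and no relative of Aire reached an unadjusted limma p of 0.05. The median of the list, Aire included, was -0.15, and 0.25 without knockout A. Fezf2, another thymic regulator of tissue antigens, was above the floor on wild-type A only, at 38.2. Cell cycle genes were mostly high on knockout A: 10 of 25 were higher and 0 lower on both knockout arrays, beside 12.1% and 19.4% of all genes, and the median of 1.18 was 0.32 without knockout A and 2.49 without knockout B. Mki67, the proliferation antigen, had 1882 and 828 against 5057 and 1395, and Mcm6, a subunit of the replicative helicase, 981 and 1158 against 3706 and 1574 (1.18 ± 0.42, unadjusted p = 0.0388 by limma), the only member at that threshold, which is near the 3.47% of all genes. On 2 of the 3 Mcm6 probe sets the groups overlapped. Immediate early and heat shock genes, which are induced rapidly by stimulation or stress, had 0 of 16 higher and 6 lower on both knockout arrays. All genes gave 12.1% and 19.4%, and the brightest bin, nearer to the level of most of this list, 9.34% and 30.4%. Atf3, a stress-induced transcription factor, had 6065 and 6611 against 3366 and 3824 (-0.82 ± 0.29) and Junb 210.1 and 185 against 141 and 104 (-0.70 ± 0.24). The median of this list, -0.05 (-0.22 without knockout A), turned to 0.06 on the deposited scale and 0.04 after quantile normalization, and Hspa1a, an inducible heat shock protein, was higher on both B arrays than on both A arrays, at 1219 and 5943 against 1251 and 4440.3.

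**Figure D5:**
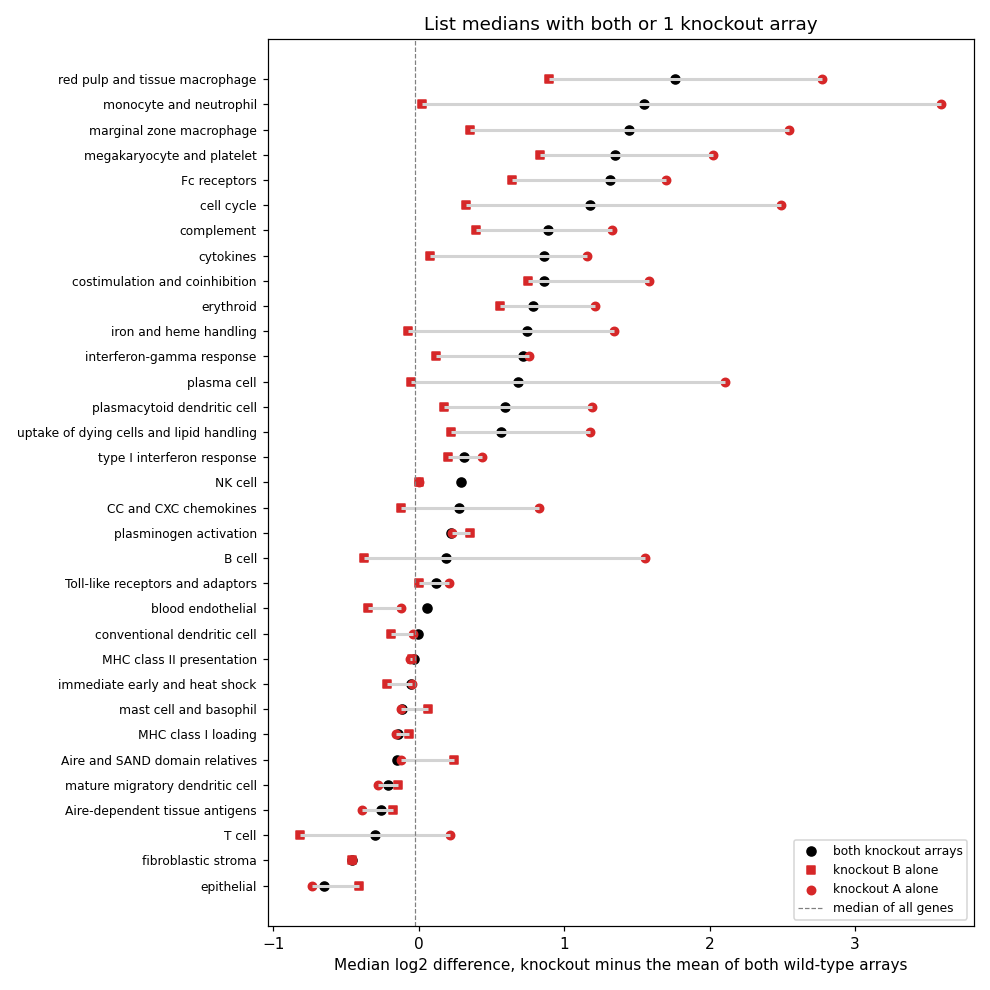
Median log2 difference of each gene list, knockout minus the mean of both wild-type arrays. Black points use both knockout arrays, red squares knockout B alone and red circles knockout A alone, with a dashed line at the median of all genes (-0.03). With knockout B alone the median is 0.75 for costimulation (0.86 with both), 0.89 for red pulp macrophage genes (1.76), 0.35 for marginal zone macrophage genes (1.45) and 0.03 for monocyte and neutrophil genes (1.55).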

How the data were processed

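Aire knockout and wild-type spleen RNA was hybridised to 4 Affymetrix arrays, which were read beside 4 lymph node arrays. The authors deposited 1 linear intensity per probe set, made with MAS5 per the submitters' processing notes. On every array the 2% trimmed mean was 250, so the arrays had been scaled before deposit. The table lists 45101 probe sets. After removal of 64 controls, 45037 were analysed: 34945 with a single gene symbol in the probe set table, 932 with several and 9160 without. Arrays were brought to 1 median, a floor was set at the 20th percentile of all signals (9.58), and values were then converted to log2. In R 4.3.3, limma 3.58.1 fitted a mean for each of the 4 groups to all 8 arrays, so that the lymph node arrays lent only spread (4 residual and 0.894 prior degrees of freedom), with Benjamini-Hochberg adjustment over all 45037 probe sets and a threshold of 0.05. The fit was also run on simulated normal values without a floor, with differences set only on probe sets above the median signal. That run does not cover probe sets with a whole group at the floor. The labels do not say whether A and B are separate animals, so the p-values reflect spread that may be technical, and the number of arrays limits the precision.

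A gene was represented by its probe set with the highest mean over 8 arrays (18193 genes). List members are given at that probe set unless another is named, and their other probe sets can overlap or differ. Gene lists numbered 34, with 452 distinct genes, of which 38 had no probe set matched by symbol and are not analysed here. Lists were described by counts and medians, without set tests. Named were Aire, every probe set past the threshold, the 12 probe sets in each direction with the smallest p and 1 informative symbol, and for each list members with the smallest p or a defining role. The 12 abundant probe sets in each direction and the counts without knockout A were added after the values were seen. The members and lists were chosen with earlier results of these data known. Promoter sequences came from RefSeq (GRCm38.p6). Alternatives changed the scaling, floor, filter, probe set rule, prior, covariate, arrays in the fit and each single array.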

Additional observations from a re-analysis of the deposited data

Results flagged for a closer look

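The lymph node arrays lie outside the spleen comparison, and the 2 unnamed probe sets called in spleen also gave signal there above the wild-type arrays. The knockout minus wild-type difference in lymph node was 7.58 for 1456182_x_at (adjusted p = 0.000576 by limma) and 7.27 for 1433438_x_at (adjusted p = 0.0127 by limma), beside 8.82 and 8.73 in spleen. The genes these probe sets measure are not named in the probe set table.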

How the results depend on the processing

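With 2 arrays a group, few differences could pass the adjusted threshold. With the main settings 2 probe sets passed it. There was 1 with no floor, 1 with the Y-linked signal as a covariate and 0 with the spleen arrays alone. Averaging the probe sets of each gene leaves out those without a gene symbol, so the 2 calls were not retested there. The 1 gene that passed with gene averages was Zbp1 (adjusted p = 0.0251 by limma). A floor at the 40th percentile called 48, and 35 probe sets then differed between tissues. Genes higher at an unadjusted p under 0.05, 631 in all, came to 416 under a filter on low signals, and to between 594 and 1265 without each array in turn. Genes lower, 942, came to 609 with no floor and 478 under the filter. Pcnx4 reversed to -0.31 with its probe sets averaged. The cause of these shifts was not tested, apart from the filter testing fewer genes. At the 40th percentile floor the named probe sets of Ccnjl, Sass6, Trp53bp1, Mapre1 and Dda1 passed (adjusted p from 0.0217 to 0.0412 by limma), and 8 named probe sets lay wholly at that floor and gave no value. Deviations of same-letter arrays correlated at r = 0.0227 over all probe sets and 0.0660 over abundant ones in spleen, and at 0.157 and 0.410 in lymph node. The labels do not say what the letters mark, and the arrays were not treated as pairs. With the letter as a replicate block, 2 probe sets passed, 750 genes were higher and 1079 lower, and Aire stayed at -1.73. Of the list medians, 470 values under alternatives moved by less than the spread between arrays and 55 by more. Aire kept its direction and missed the adjusted threshold under every alternative run.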
